A study of Mus musculus with 6 samples.

Results

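The enzymes and cofactors that write, copy and remove DNA methylation were followed at the transcript level in mouse embryonic stem cells with and without Rbbp4. The 10 genes, of 52870 features listed per library, were taken by symbol: Dnmt1, Uhrf1 and Uhrf2 as the maintenance group, Dnmt3a, Dnmt3b and Dnmt3l as the de novo group, and Tet1, Tet2, Tet3 and Tdg as the oxidation and excision group. RNA sequencing gave 3 control libraries from Rbbp4F/F cells, in which both alleles of Rbbp4 carry the floxed form, and 3 knockout libraries from cells with the genotype Rbbp4-/-. Both groups are C57BL/6 stem cells with no treatment named. The labels give neither the recombinase, the time since deletion, nor whether the replicates of a group were separate cultures or clones, so the p-values speak of the scatter among these 6 libraries, which may be technical. Rbbp4 encodes a histone-binding subunit shared by NuRD, Polycomb repressive complex 2, Sin3 and the chaperone CAF-1.

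In mammals methyl groups sit mainly on cytosines of CpG dinucleotides. DNMT3A and DNMT3B place them on unmethylated DNA, with DNMT3L as a catalytically inactive partner, and after replication UHRF1 recognises half-methylated sites and recruits DNMT1 to restore the second strand. TET enzymes oxidise methylcytosine, and the glycosylase TDG cuts out the more oxidised forms so that repair can put back an unmodified base. Embryonic stem cells are known for high expression of TET1, DNMT3B and DNMT3L.

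Promoter sequences from RefSeq (GRCm38.p6) are shown for 4 of the genes because they set Uhrf1 and Dnmt1, the maintenance genes that were lower in the knockout, beside Uhrf2, the paralog that was higher, and Dnmt3a, a de novo gene that was lower. All 10 genes matched, with 17 windows from 250 bases before to 50 bases after an annotated start site. Capitals mark an E2F motif, TTTNGCGC, or a GC box, GGGCGG, each read on both strands, and no E2F motif overlapped a GC box in the windows shown. The Uhrf1, Uhrf2 and Dnmt3a stretches end 1 base before the start site. The Dnmt1 stretch holds 30 bases around the upstream 1 of its 2 E2F motifs, because this part of the window lies in an annotated exon. The start sites used for Uhrf1, Dnmt1 and Dnmt3a lie 992, 7265 and 973 bases downstream of the outermost annotated 5′ end of the gene. Dnmt3a also has an annotated start site 85737 bases downstream of that end, which is not shown. Its window held 18 CpG dinucleotides and 2 GC boxes, against 46 and 6 in the whole window of the site used.
Uhrf1, chr17:56304063-56304312, plus strand: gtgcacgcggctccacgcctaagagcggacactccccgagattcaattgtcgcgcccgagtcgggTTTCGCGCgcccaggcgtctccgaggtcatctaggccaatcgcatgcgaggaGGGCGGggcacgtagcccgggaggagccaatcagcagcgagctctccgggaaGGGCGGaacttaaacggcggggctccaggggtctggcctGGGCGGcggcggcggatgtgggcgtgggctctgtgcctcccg
Dnmt1, chr9:20952824-20952853, minus strand: ggtttccgcgcGCGCGAAAaagccggggtc
Uhrf2, chr19:30030263-30030512, plus strand: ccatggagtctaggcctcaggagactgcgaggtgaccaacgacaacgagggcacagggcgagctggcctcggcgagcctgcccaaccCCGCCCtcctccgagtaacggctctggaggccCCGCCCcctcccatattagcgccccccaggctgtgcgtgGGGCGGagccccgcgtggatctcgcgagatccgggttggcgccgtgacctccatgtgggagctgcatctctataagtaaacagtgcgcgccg
Dnmt3a, chr12:3806730-3806979, plus strand: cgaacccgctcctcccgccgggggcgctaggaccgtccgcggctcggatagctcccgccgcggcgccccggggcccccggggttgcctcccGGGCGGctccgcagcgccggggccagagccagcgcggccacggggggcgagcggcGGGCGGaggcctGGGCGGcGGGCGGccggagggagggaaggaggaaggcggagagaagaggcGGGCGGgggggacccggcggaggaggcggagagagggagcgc
The E2F letters were present in 2 of the 17 windows, against 1.38% of the 32851 promoter windows in the RefSeq table. These were 1 window each of Uhrf1 and Dnmt1, and the other 8 genes had none. Both are the windows shown, and the other windows of Uhrf1 and Dnmt1 held no E2F letters. A link of these letters to the direction of change was not tested. A GC box was found in 13 of the 17 windows, against 35.7% of all windows. The Uhrf1 stretch held 30 CpG dinucleotides, the Uhrf2 stretch 23 and the Dnmt3a stretch 38, where whole windows of all genes had a median of 7. These matches describe letters only, and which start sites were used in these cells was not tested.

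Values are FPKM, fragment counts scaled to transcript length and library size. From the spacing of low values each library held about 26000000 to 28400000 fragments, so that 1 fragment on a 2 kb transcript equals 0.0176 to 0.0192 FPKM. Rbbp4 itself lay at 57.0 to 61.8 FPKM in control and 11.1 to 21.3 FPKM in knockout libraries, and the labels do not name the deleted exons. Knockout replicate 1 stood apart from the other knockout libraries on principal component 2, with 36 where they had −6.96 and −24.2. Of 13579 genes tested with limma, 4978 were called higher and 3051 lower. The split was 3843 and 3992 under median-ratio scaling, 3453 and 4402 under upper-quartile scaling, and 6080 and 2380 with equal FPKM sums. Over every tested gene the median log2 difference was 0.17 as deposited and −0.01, −0.07 and 0.31 under these scalings. All 8 stem cell markers were detected in both groups, and their summed level ran from 4710 to 4850 FPKM in control and from 1390 to 2180 FPKM in knockout libraries, with 7 of the 8 called lower. Trophoblast markers summed to 115 to 173 FPKM in control and 2210 to 3990 FPKM in knockout libraries. Most of that sum came from 2 keratin genes, Krt8 (means 65.8 and 1590 FPKM) and Krt18 (55.5 and 1570 FPKM). Eomes (2.90 and 2.88 FPKM) and Elf5 (1.29 and 1.99 FPKM) were not called. The other 7 of the 9 were called higher, of which Cdx2 and Gata3 reached 1 FPKM in the knockout libraries alone and so had to differ. Primitive endoderm markers summed to 2.26 to 3.82 and 8.61 to 9.02 FPKM, with 2 of 3 tested called higher, of which the same holds for Gata4. Of 8 fibroblast markers 7 stayed below 1 FPKM in all 6 libraries, and the other, Thy1, was called lower. In bulk RNA fewer cells of a type and less RNA per cell cannot be told apart, and the part of these marker shifts in the results on methylation genes was not tested.

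The methylation genes moved in both directions. At a limma adjusted p under 0.05, 6 of the 10 fell (Dnmt1, Uhrf1, Dnmt3a, Dnmt3b, Tet1 and Tet2), 2 rose (Uhrf2 and Tet3) and 2 were not called (Dnmt3l and Tdg). The background is high: 59.1% of all tested genes were called, 36.7% as higher and 22.5% as lower. In 9 of the 10 genes the 2 groups did not overlap, 6 with the knockout lower and 3 with it higher, where the same held for 66.8% of tested genes, 25.5% lower and 41.3% higher. The median log2 fold change of the 10 genes was −0.54, which is 0.71 below the median of all tested genes. All 10 had at least 1 FPKM in all 6 libraries, so none passed the filter through 1 group alone.

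**Figure D1:**
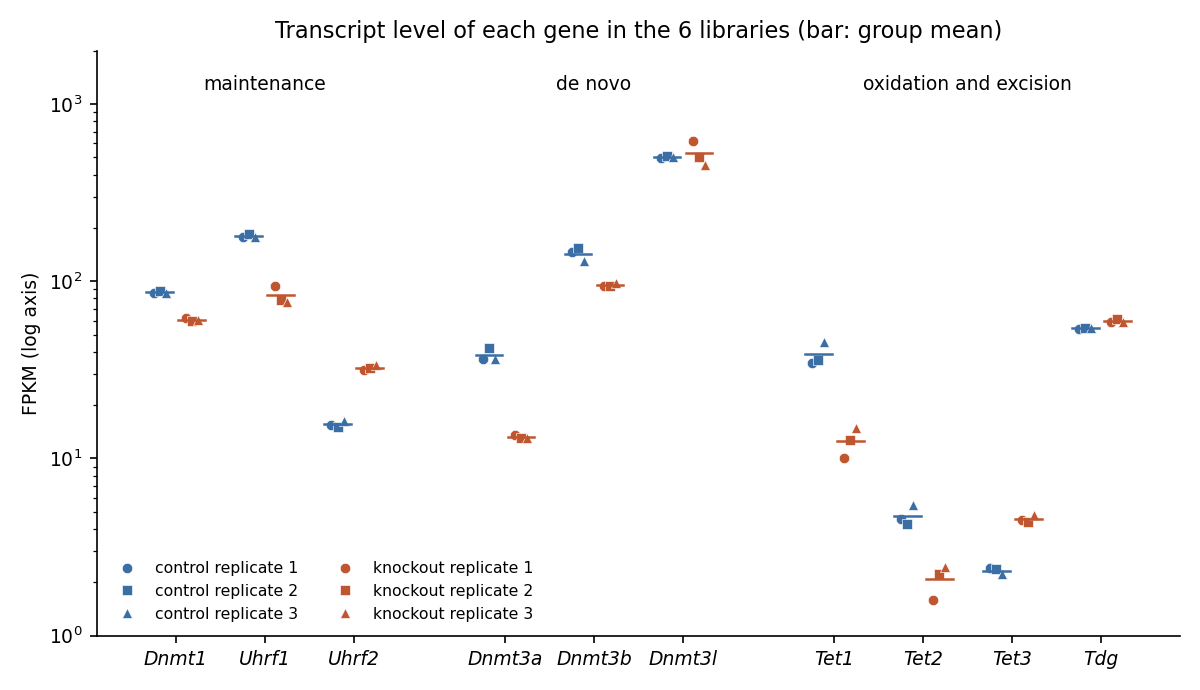
FPKM of each of the 10 genes on a log axis, with 1 point per library (blue control, orange knockout, marker shape the replicate number) and a bar at the group mean. The groups are separate for every gene except Dnmt3l, and the levels run from 1.59 FPKM for Tet2 to 621 FPKM for Dnmt3l.

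Among the maintenance genes, both Dnmt1 and Uhrf1 fell and Uhrf2 rose. Dnmt1 (ENSMUSG00000004099, GRCm38 chromosome 9, 20907209 to 20959888, minus strand, 39 exonic blocks), the maintenance methyltransferase, had 86.1, 87.8 and 86.1 FPKM in control replicates 1 to 3 and 62.4, 59.3 and 60.6 FPKM in knockout replicates 1 to 3. The 6 values formed 2 tight and separate groups, at 86.7 ± 1.0 and 60.8 ± 1.56 FPKM (SD, n = 3 each). Its log2 fold change on log2(FPKM + 1) was −0.51 ± 0.06 (SE; adjusted p = 6.71e-04, limma). Uhrf1 (ENSMUSG00000001228, chromosome 17, 56303321 to 56323486, plus strand, 18 exonic blocks), the cofactor that recruits DNMT1 to replicated DNA, had 178.6, 185.9 and 178.5 FPKM in the control libraries (replicates 1 to 3) against 94.6, 78.8 and 76.4 in knockout replicates 1 to 3. Every knockout library lay below every control, with knockout replicate 1 the highest of the 3, and 46.0% of the control mean was left. On the log2 scale Uhrf1 differed by −1.12 ± 0.09 (SE; adjusted p = 1.40e-04, limma).

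Uhrf2 (ENSMUSG00000024817, chromosome 19, 30030513 to 30093722, plus strand, 16 exonic blocks) encodes a paralog of UHRF1 that binds modified cytosine and has the same domain layout. It had 15.5, 15.1 and 16.3 FPKM in the control libraries (replicates 1 to 3) against 31.6, 32.3 and 33.9 in knockout replicates 1 to 3. The groups did not overlap, and the mean was 2.08 times as high in the knockout (1.01 ± 0.08 on the log2 scale, SE; adjusted p = 1.17e-04, limma). Uhrf2 made up 7.96% ± 0.426 (SD, n = 3) of the summed Uhrf1 and Uhrf2 FPKM in the controls and 28.3% ± 2.92 in the knockout libraries. The summed FPKM of both genes was lower, at 197 ± 3.78 and 116 ± 8.94, so the added Uhrf2 transcript was smaller than the Uhrf1 transcript lost.

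Dnmt1 and Uhrf1 are expressed most in dividing cells, and 18 S phase genes were read beside them. Of these 13 fell and 0 rose in limma, 72.2% called against 59.1% of all tested genes (22.5% lower). Their median log2 fold change was −0.52 against 0.17. With equal FPKM sums or without knockout replicate 3, 1 rose, and over the alternatives 10 to 14 fell. The 3 with the smallest p are Cdc6, Gins2 and Rrm2. Cdc6, which loads the replicative helicase, went from 55.2 ± 3.54 to 26.4 ± 1.21 FPKM. The helicase subunit gene Gins2 went from 64.7 ± 3.65 to 31.1 ± 4.13 FPKM. Rrm2, which encodes a subunit that makes deoxynucleotides, fell by 0.96 on the log2 scale. Antisense exons of Gse1 cover 67.3% of Gins2, and reads there cannot be told apart if strand was not used. Over the 18 genes the log2 fold changes ran from −1.04 to 0.21, and 5 were not called. The drop of Dnmt1, at −0.51, lay close to the median of that list. The drop of Uhrf1, at −1.12, was larger than that of any gene of the list. The part of S phase transcription in the levels of Dnmt1 and Uhrf1 was not tested.

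The de novo genes did not move as a unit. Dnmt3a (ENSMUSG00000020661, chromosome 12, 3806007 to 3914443, plus strand, 32 exonic blocks) was measured at 36.7, 42.1 and 36.4 FPKM in the control libraries (replicates 1 to 3) against 13.6, 13.0 and 13.1 in knockout replicates 1 to 3. The knockout values were almost the same in all 3 libraries and far below the controls (34.4% of the control mean, −1.47 ± 0.09 on the log2 scale, SE; adjusted p = 5.63e-05, limma). Only 3.03% of tested genes had a lower log2 fold change than Dnmt3a. Dnmt3b (ENSMUSG00000027478, chromosome 2, 153649450 to 153687730, plus strand, 24 exonic blocks), the more abundant catalytic gene, had 146.6, 153.7 and 129.4 FPKM in the control libraries (replicates 1 to 3) against 93.9, 93.8 and 97.3 in knockout replicates 1 to 3. It fell by less than Dnmt3a, with no overlap between groups and 66.3% of the control mean left (−0.58 ± 0.08 on the log2 scale, SE; adjusted p = 1.06e-03, limma). The ratio of Dnmt3a to Dnmt3b within a library went from 0.269 ± 0.0165 to 0.139 ± 0.00509, and Dnmt3a made up 21.2% ± 1.03 of their sum in the controls and 12.2% ± 0.392 in the knockout libraries.

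Dnmt3l (ENSMUSG00000000730, chromosome 10, 78041947 to 78063622, plus strand, 18 exonic blocks), which encodes the inactive partner of both enzymes, was the most abundant of the 10 transcripts in every library. It had 494, 512 and 502 FPKM in the control libraries (replicates 1 to 3) against 621, 505 and 456 in knockout replicates 1 to 3. Knockout replicate 1 lay above all controls and knockout replicate 3 below all of them, so the groups overlapped and the spread grew from an SD of 9.06 to 85.0 FPKM. The fitted log2 difference was 0.06 ± 0.12 (SE; adjusted p = 0.698, limma), and its sign turned when libraries were scaled by median ratios (−0.14) or upper quartiles (−0.21) and without knockout replicate 1 (−0.07). With its catalytic partners lower, the ratio of Dnmt3l to Dnmt3a went from 13.1 ± 0.862 to 39.8 ± 5.53 and that of Dnmt3l to Dnmt3b from 3.53 ± 0.306 to 5.56 ± 0.977. Because Dnmt3l dominates the sum, the de novo group as a whole summed to 684 ± 21.0 FPKM in control and 636 ± 84.0 FPKM in knockout libraries, while Dnmt3a and Dnmt3b together went from 182 ± 15.1 to 108 ± 1.83 FPKM.

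Copies of these genes carried little signal. Dnmt3c, a rodent copy of Dnmt3b active in male germ cells, and the pseudogene Dnmt3l-ps1 were listed at 0 in all 6 libraries. The pseudogenes Dnmt3a-ps1 and Tdg-ps reached at most 0.36 and 0.03 FPKM. How reads shared with such copies were divided is not given in the sources used here. The values are for whole genes, so isoforms such as the short form of Dnmt3a known from stem cells were not separated.

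**Figure D2:**
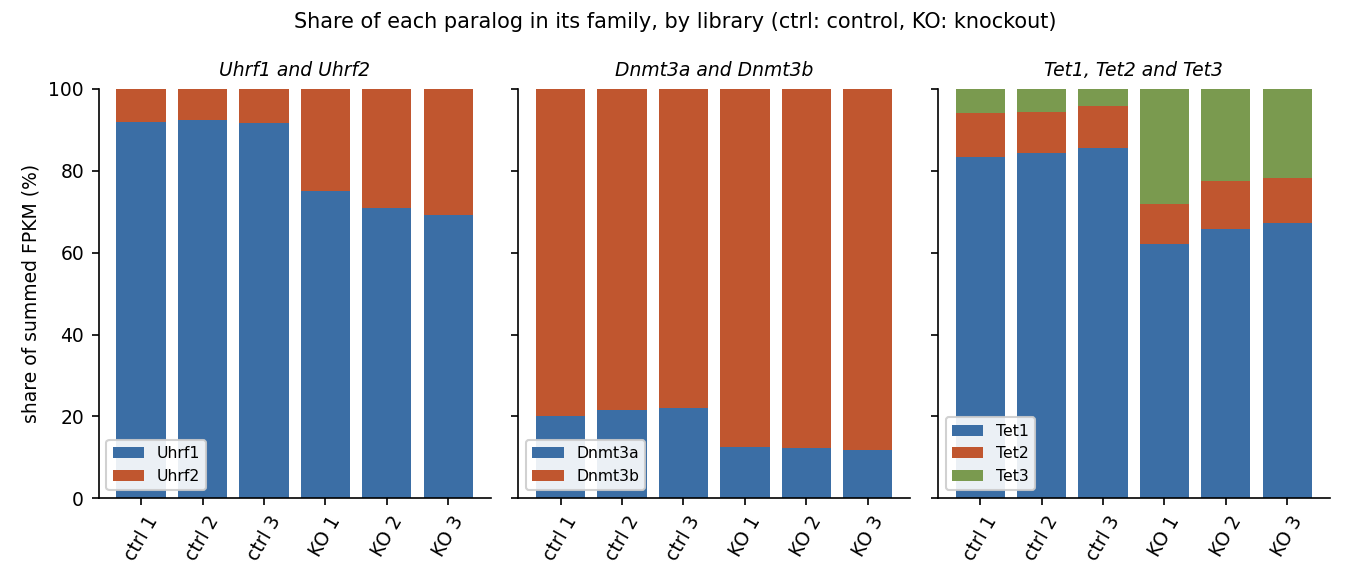
Stacked bars give the share of summed FPKM taken by each paralog in the 6 libraries, for Uhrf1 and Uhrf2, for Dnmt3a and Dnmt3b, and for the 3 TET genes. In every knockout library Uhrf2 and Tet3 hold a larger share, and Dnmt3a a smaller share, than in any control library.

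Among the TET genes, Tet1 and Tet2 fell and Tet3 rose. Tet1 (ENSMUSG00000047146, chromosome 10, 62804570 to 62908996, minus strand, 18 exonic blocks), the main TET transcript of stem cells, had 34.5, 35.8 and 45.7 FPKM in the control libraries (replicates 1 to 3) against 10.01, 12.8 and 14.8 in knockout replicates 1 to 3. All knockout values were below all control values, with 32.4% of the control mean left, and the log2 difference of −1.56 ± 0.17 (SE; adjusted p = 3.45e-04, limma) was within 1 SE of that of Dnmt3a (−1.47). Without control replicate 3 Tet1 had −1.43 and Dnmt3a −1.50, and without knockout replicate 1 they had −1.42 and −1.49, so the order of these 2 genes depends on single libraries. Tet2 (ENSMUSG00000040943, chromosome 3, 133463679 to 133545139, minus strand, 14 exonic blocks), which encodes an enzyme without the CXXC DNA-binding domain of TET1, had 4.53, 4.26 and 5.45 FPKM in the control libraries (replicates 1 to 3) against 1.59, 2.24 and 2.44 in knockout replicates 1 to 3. It fell to 44.0% of the control mean (−0.90 ± 0.16 on the log2 scale, SE; adjusted p = 3.01e-03, limma), a value that the added 1 FPKM holds down, since with 0.1 FPKM added it was −1.16. Both genes were highest in control replicate 3 and lowest in knockout replicate 1.

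Tet3 (ENSMUSG00000034832, chromosome 6, 83362373 to 83459084, minus strand, 14 exonic blocks), the TET enzyme known for its role in the zygote and in neural tissue, had 2.40, 2.37 and 2.23 FPKM in the control libraries (replicates 1 to 3) against 4.51, 4.39 and 4.79 in knockout replicates 1 to 3. The groups were tight and separate, and the mean was 1.96 times as high in the knockout (0.74 ± 0.12 on the log2 scale, SE; adjusted p = 1.69e-03, limma). The added 1 FPKM holds this log2 value down, since with 0.1 FPKM added it was 0.94. Tet3 was the lowest of the 10 genes in the controls, and in the knockout libraries it lay above Tet2 with no overlap. Of the summed TET signal Tet1 held 84.4% ± 1.16 in the controls and 65.0% ± 2.61 in the knockout libraries, Tet2 10.4% ± 0.469 and 10.8% ± 0.869, and Tet3 5.18% ± 0.875 and 24.1% ± 3.38. The TET sum itself went from 45.7 ± 6.59 to 19.2 ± 2.97 FPKM, so less TET transcript was present in all despite the higher Tet3.

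Tdg (ENSMUSG00000034674, chromosome 10, 82629828 to 82650799, plus strand, 11 exonic blocks), the glycosylase gene downstream of the TET enzymes, had 53.5, 54.7 and 54.4 FPKM in the control libraries (replicates 1 to 3) against 59.2, 61.4 and 58.5 in knockout replicates 1 to 3. The groups did not overlap, but the log2 difference of 0.14 ± 0.07 (SE; adjusted p = 0.113, limma) did not pass, and was 0.03 less than the genome-wide median. Its sign turned when libraries were scaled by median ratios (−0.05) or upper quartiles (−0.13), and with equal FPKM sums it passed as higher (0.29, limma adjusted p = 8.44e-03). The limma adjusted p of Tdg ran from 8.44e-03 to 0.515 over its 13 alternatives. Exons of Glt8d2 on the other strand cover 6.83% of Tdg.

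**Figure D3:**
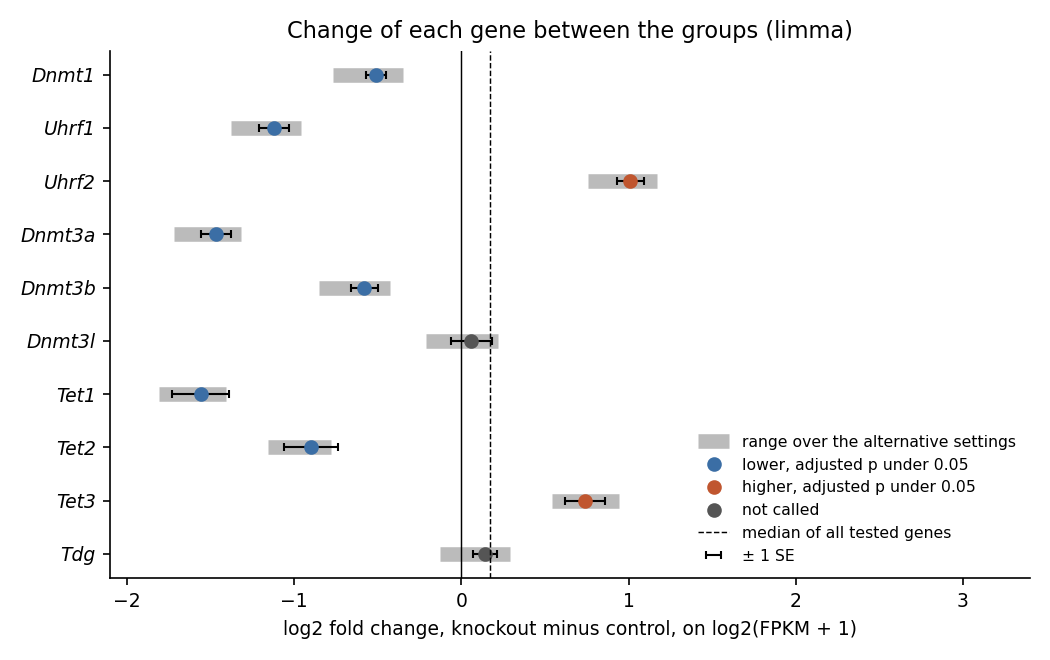
Log2 fold change (knockout minus control, on log2(FPKM + 1)) of each gene as a point with ± 1 SE, coloured by the limma call, over a grey bar for the range across the alternative settings. The 6 blue points lie between −1.56 and −0.51, Uhrf2 and Tet3 lie at 1.01 and 0.74, and the grey bars of Dnmt3l and Tdg cross 0.

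The order of transcript levels, in FPKM and so per length, changed in several places. From high to low the controls gave Dnmt3l, Uhrf1, Dnmt3b, Dnmt1, Tdg, Tet1, Dnmt3a, Uhrf2, Tet2 and Tet3, and Tet1 and Dnmt3a were the only neighbours whose values overlapped. In the knockout libraries the order was Dnmt3l, Dnmt3b, Uhrf1, Dnmt1, Tdg, Uhrf2, Dnmt3a, Tet1, Tet3 and Tet2. There the values of Dnmt3b and Uhrf1, of Dnmt1 and Tdg, and of Dnmt3a and Tet1 overlapped. Uhrf2 thus stood below Tet1 and Dnmt3a in the controls and above both in the knockout libraries.

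Ratios between 2 genes of 1 library do not depend on the scaling between libraries, and 11 pairs were compared across maintenance, de novo and oxidation genes. In 10 of them the groups did not overlap, as was the case for 66.8% of single tested genes. The share among pairs of other genes was not computed. Several pairs share a gene, so they partly restate the changes of single genes. For each of the 10, the exact permutation test, two-sided, gave p = 0.1, the smallest that 3 against 3 libraries allow. Benjamini-Hochberg adjustment over the 11 pairs made this permutation p 0.11, so no pair could pass 0.05. The largest shift was in Tet3 to Tet1, whose log2 ratio went from −3.98 ± 0.27 to −1.42 ± 0.25, a 5.91-fold change of the ratio, followed by Uhrf2 to Uhrf1, a 4.53-fold change. Between groups of genes, Dnmt3a to Dnmt1 went from a linear ratio of 0.443 ± 0.0319 to 0.217 ± 0.00209, and Tet1 to Dnmt1 from 0.446 ± 0.0727 to 0.207 ± 0.0427. Uhrf1 to Dnmt1 went from 2.09 ± 0.0244 to 1.37 ± 0.131. Dnmt3b to Dnmt1 was the pair that overlapped, with 1.65 ± 0.132 and 1.56 ± 0.0526 (difference of log2 ratios −0.08, exact permutation p = 0.4). Tdg to Tet1 went from 1.42 ± 0.20 to 4.89 ± 0.981.

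**Figure D4:**
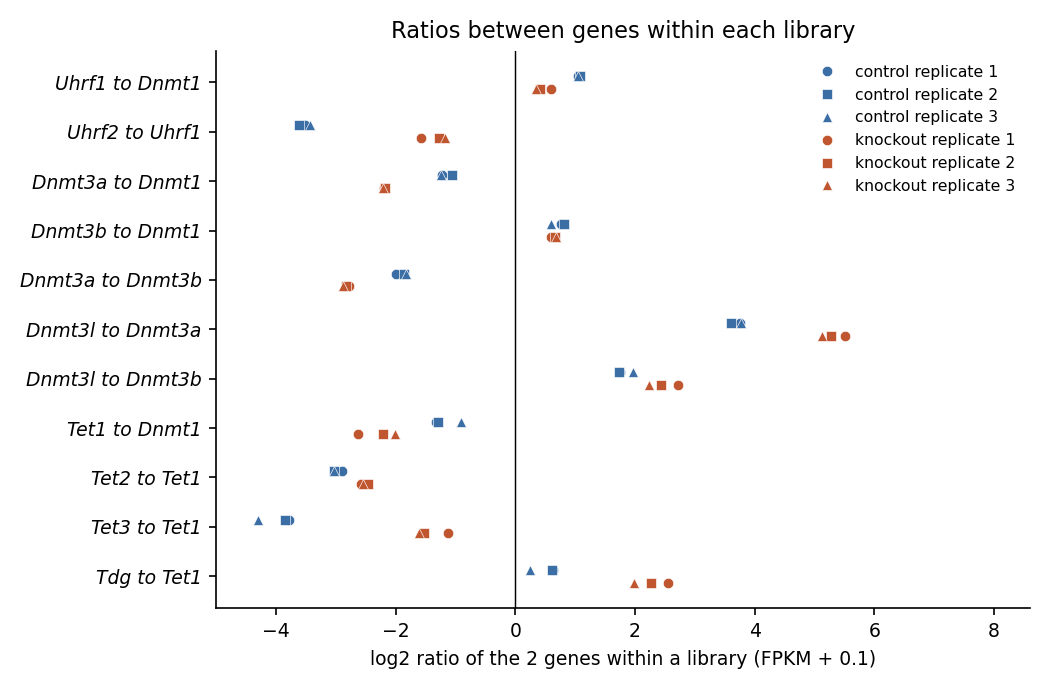
Log2 ratio of 2 genes within each library (FPKM + 0.1) for the 11 pairs, with 1 point per library (blue control, orange knockout, marker shape the replicate number). Control and knockout points are separate for 10 pairs and overlap for Dnmt3b to Dnmt1.

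Genes that act around these enzymes were read from lists, each set against the 59.1% of all tested genes called. Of 18 regulators and recruiters of DNA methyltransferases, 12 fell and 2 rose, 77.8% called in all (Usp7 and Setd2, named after their values were seen). Under either median-ratio or upper-quartile scaling, or without control replicate 1 or 2, 1 rose. Without knockout replicate 1, 3 rose, and over the alternatives 10 to 13 fell. The 3 with the smallest p all fell: Prdm14, a germ cell and stem cell factor known to repress the Dnmt3 genes, from 2.94 ± 0.191 to 0.163 ± 0.127 FPKM (above the filter in the controls alone, so that it had to differ), Dppa3, which encodes an inhibitor of UHRF1, from 37.6 ± 2.71 to 12.8 ± 2.74 FPKM, and Cdca7, which encodes a partner of the remodeller HELLS, from 92.8 ± 2.63 to 39.4 ± 5.14 FPKM. Of 10 genes listed as methyl-CpG readers, 6 rose and 1 fell, 70.0% called in all, where 8 rose with equal FPKM sums. A filter of 5 FPKM left 3 that rose, because it takes Mbd5, Zbtb33 and Zbtb4 out of the test. Among the 6, Zbtb4, named after its values were seen, reached 1 FPKM in the knockout libraries alone (0.26 to 0.46 against 1.27 to 1.53 FPKM) and so had to differ. Among those that rose, Mbd2 had 9.78, 8.78 and 11.5 FPKM in the controls and a mean of 28.9 ± 5.72 FPKM in the knockout, Mbd5 from 1.90 ± 0.231 to 5.77 ± 1.07 FPKM and Zbtb38 from 2.16 ± 0.0808 to 6.69 ± 1.21 FPKM. Mbd3, a NuRD subunit gene and the 1 gene of this list that fell, was picked out once its log2 difference of −0.65 was known. Its protein binds methylated DNA poorly. The same may hold for other proteins of the list, that of Mbd5 among them, and binding was not tested for any.

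Enzymes that feed or follow the reactions moved in both directions. Of 11 tested genes listed as TET partners and cofactor enzymes, 4 rose and 6 fell, 90.9% called in all. Idh1, whose enzyme makes the oxoglutarate that TET enzymes use, fell from 55.3 ± 2.67 to 19.7 ± 1.39 FPKM, while Gadd45b and Gadd45a, stress genes proposed to assist demethylation, both rose, Gadd45b from 19.7 ± 2.29 to 155 ± 12.8 FPKM and Gadd45a from 18.9 ± 0.957 to 44.1 ± 3.05. Antisense exons of E230016M11Rik cover a part of Gadd45a. In the base excision repair list 1 of 12 rose and 4 fell, 41.7% in all. With equal FPKM sums 3 rose, and without knockout replicate 1 the number that fell was 6. The 3 with the smallest p were Parp1, which fell from 317 ± 8.78 to 99.6 ± 11.8 FPKM, the uracil glycosylase gene Ung (log2 fold change −1.32) and the repair polymerase gene Polb, which rose (1.12). Of 9 genes of the S-adenosylmethionine cycle, which supplies the methyl group, 5 fell and 2 rose, 77.8% called in all. The hydrolase gene Ahcy fell from 267 ± 1.25 to 119 ± 2.25 FPKM, and the serine hydroxymethyltransferase genes Shmt2 and Shmt1 had log2 fold changes of −1.36 and −1.14. Scaled by upper quartiles or median ratios 0 genes of that list rose, and 1 rose without a filter or on leaving out any 1 of 4 libraries (control replicates 1 and 3, knockout replicates 1 and 2).

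Methylation itself was not measured, and transcripts of germline genes whose promoters are known to be methylated give a side view only. Of 11 tested, 9 rose and 0 fell in limma, 81.8% called in all, where 59.1% of all tested genes were called and 36.7% were higher. Of the 9, 4 passed the filter through the knockout libraries alone and so had to differ. Taf7l (log2 fold change 3.47) and Sycp1 (1.35) are 2 of these 4. Ddx4, a germ cell helicase gene detected in both groups, went from 6.31 ± 0.432 to 27.7 ± 5.73 FPKM (1.96). Without a filter 11 of 16 were higher. A filter of 5 FPKM left Ddx4, Mael, Sohlh2, Taf7l and Tex19.1 in the test, and 4 of these, all but Tex19.1, were higher. Taf7l passed that filter through the knockout libraries alone. Of all tested genes, 5347 of 26853 were higher without a filter and 3702 of 9666 with a filter of 5 FPKM.

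The genes whose profile over the 6 libraries lay nearest to a methylation gene were taken among 12212 tested protein-coding genes, by the root mean square difference of log2(FPKM + 1) less the control mean. Nearest to Uhrf2 were Chmp2b (0.037), Atg3 (0.046) and Pear1 (0.047), although Pear1 is near 0 in the controls, at 0.0833 ± 0.0208 FPKM, and only matches on this scale. Nearest to Tet1 were the mitochondrial gene mt-Nd2 (0.109), Pir (0.111) and Bnip3 (0.124).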

How the data were processed

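Total RNA was extracted with Trizol and made into Illumina TruSeq libraries, per the labels' protocols. Tools listed in the submitters' processing notes, with no role, are HISAT2 2.1.0, DESeq 1.26.0, RSEM and FastQC, beside the build GRCm38.p6. Annotation release and strand setting: not given in the sources used here. The authors deposited 1 value per gene, taken as FPKM from the values: for genes of few reads they fall on even steps after an effective-length correction, 88.0% to 91.1% within 0.15 of a whole step where 30% would by chance. Of 52872 rows per file, 2 hold overflowing text and were left out, and 958 are assembled loci. Symbols and positions came from GENCODE M21 (GRCm38), which matched 51719 of 51912 Ensembl identifiers.

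The test was limma 3.58.1 (R 4.3.3) on log2(FPKM + 1) of genes that reached 1 FPKM in 3 or more of the 6 libraries (mean trend, group only, two-sided, Benjamini-Hochberg over all tested genes, threshold 0.05). The script was tested on simulated data. Gene pairs were compared by exact permutation. The named genes are the 10 genes, Rbbp4, the 3 called genes with the smallest p of each further list, and the 3 nearest profiles of the called genes that rose and fell most. The genes and lists were chosen with earlier results of these data known. Alternatives were median-ratio and upper-quartile scaling, equal FPKM sums, 0.1 FPKM added, no filter, a filter of 5 FPKM, the replicate block, and omission of single libraries (1 FPKM in 2 or more of those left).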

Additional observations from a re-analysis of the deposited data

How the results depend on the processing

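The 8 called genes kept their direction and their limma call in all 102 refits in which they were tested. The 2 genes not called changed sign: Dnmt3l had a log2 fold change of −0.14 with median-ratio scaling, −0.21 with upper-quartile scaling and −0.07 to 0.16 with single libraries left out (lowest without knockout replicate 1), and Tdg had −0.05 and −0.13 with the 2 scalings and passed as higher with equal FPKM sums (0.29). A filter of 5 FPKM left out Tet2 and Tet3, so 1 gene was then called higher, by construction. The fitted change in the log2 ratio of Tet2 to Tet1 was 0.47 with 0.1 FPKM added and 0.66 with 1 FPKM added. Leaving out 1 library gave 4231 to 5592 genes higher and 2436 to 3587 lower. Same-numbered libraries did not deviate together (r = −0.00121, −0.00933 and 0.0492 over 13579 genes), so no pairing by number was seen over all genes. A correlation over all genes cannot show a pairing that acts on a part of them. With the replicate block 4872 genes were higher and 2907 lower, and of the methylation genes 2 were higher and 6 lower, as without it. Depth limits none of the 10 genes, whose lowest value was 1.59 FPKM, whereas the groups of 3 limit the exact tests to p = 0.1.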
